A study of Homo sapiens with 6 samples.

Results

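The 10 genes examined here were picked by symbol for their place in the NF-kB pathway, with earlier results of these data known. They were the subunits NFKB1, NFKB2, REL, RELA and RELB, the inhibitors NFKBIA and NFKBIE, and the feedback or target genes TNFAIP3, BIRC3 and ICAM1. They were 10 of 21519 genes in the co-culture table and 10 of 9450 genes in the table of METTL1 knockdown and m7G peaks. All of the libraries came from DLD1, an established human colorectal cancer cell line.

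NF-kB is a family of transcription factors whose subunits pair into dimers and, in resting cells, are held in the cytoplasm by inhibitors of the IkB family. Signals from receptors for tumour necrosis factor, interleukins or microbial products activate a kinase complex that marks the inhibitors for destruction, after which the dimers enter the nucleus and bind kB motifs. Several of the genes switched on in this way encode the subunits and inhibitors themselves, so that their mRNAs are part of a feedback loop, and in colon epithelium the pathway is known for driving cytokine and adhesion genes.

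The libraries fell into 6 groups of 1 library each. The library S-CAFs-w13 (genotype WT) names S-CAFs in its title and is read here as DLD1 grown with S-CAFs. The series title speaks of senescent CAFs, that is, cancer-associated fibroblasts. DLD1-W13CM (also WT) is the other RNA-seq library. The series text names DLD1 grown with CAFs beside DLD1 grown with S-CAFs, but the labels of DLD1-W13CM do not say which culture it was or explain the letters CM, so it is called by its title throughout. The pair is called the co-culture libraries for short, whatever the culture of DLD1-W13CM was. The libraries sh2-Input and sh2-IP were the input RNA and the anti-m7G immunoprecipitate of DLD1 with stable METTL1 knockdown by a single construct, and sh-NT-Input and sh-NT-IP were those of control cells. The design text speaks of replications for the knockdown and control cells, yet the labels give 1 input and 1 IP library of each. METTL1 is an enzyme that writes 7-methylguanosine (m7G) into RNA. The study asked how co-culture with S-CAFs and the loss of METTL1 change RNA in these cancer cells. Culture medium with serum and antibiotics was shared by all of the cells.

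Expression is given as FPKM, fragments scaled by gene length and library size. The FPKM values allowed whole reads to be recovered, with effective library sizes of 6215547 for S-CAFs-w13, 6337932 for DLD1-W13CM, 11625162 for knockdown input and 10454179 for control input. METTL1 itself stood at 3.28 FPKM in knockdown input, against 5.80 FPKM in control input, 1.77-fold lower (95% counting interval 1.37 to 2.29). In the co-culture libraries METTL1 stood at 1.78 FPKM in S-CAFs-w13, against 4.82 FPKM in DLD1-W13CM, 2.71-fold lower (1.75 to 4.29). Of 12 colon epithelial markers 11 were listed in the co-culture table, and their FPKM summed to 3205 in S-CAFs-w13, against 2096 in DLD1-W13CM. The difference in the sum came from keratins, such as KRT18 at 1593 FPKM in S-CAFs-w13, against 892 FPKM in DLD1-W13CM. Of the 11, 4 were lower in S-CAFs-w13: CDX2 (6.83 FPKM in S-CAFs-w13, 19.0 in DLD1-W13CM), CDH1 (103 and 133), VIL1 (1.12 and 2.098) and EPCAM (149 and 154). Of the same markers, 9 were listed in the knockdown table, with sums of 3528 in knockdown input and 2962 in control input. Of 19 fibroblast markers, 10 were listed in the co-culture table, and their FPKM summed to 6.41 in S-CAFs-w13, against 6.49 in DLD1-W13CM. The highest, FN1 (1.71 FPKM in S-CAFs-w13, 3.12 in DLD1-W13CM) and ACTA2 (1.51 and 1.80), were lower in S-CAFs-w13, while 7 of the 10 were higher in S-CAFs-w13. Among those 7, all below 1 FPKM, PDGFRB stood at 0.564 FPKM in S-CAFs-w13, against 0.0221 FPKM in DLD1-W13CM, COL6A1 at 0.331 against 0.0295 FPKM, and COL1A1, the defining fibroblast collagen, at 0.229 against 0.0482 FPKM. None of these 10 was at 0 in either library. The 4 listed endothelial markers summed to 2.39 FPKM in S-CAFs-w13 and 1.29 FPKM in DLD1-W13CM, and the 3 listed leukocyte markers to 2.61 FPKM in each. The part of these sums in the results below was not tested. With 1 library in each group there is no replicate check, and no p-value was computed: each interval below is a 95% counting interval, which covers counting error in these libraries and not variation between cultures. In bulk RNA, fewer cells of a kind cannot be told apart from less RNA in each cell.

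The promoters of 5 members that stood lower in one or both comparisons are shown first, because the kB motif is the sequence that NF-kB dimers bind. All of the windows shown hold a match, and NFKB2, which was also lower in the knockdown, is not shown. Whether a match goes with lower RNA was not tested. Each line runs from 250 bases before to 49 bases after the first base of the RefSeq start (GRCh38.p14), 5′ to 3′ on the gene's own strand. Capitals mark matches, on either strand, to the kB consensus (GGG, a purine, any base, A or T, a pair of pyrimidines, CC) or to the shorter core GGAATTTCC; the searches overlap wherever a core extends into a consensus match.
NFKBIA, chr14:35404700-35404999, minus strand: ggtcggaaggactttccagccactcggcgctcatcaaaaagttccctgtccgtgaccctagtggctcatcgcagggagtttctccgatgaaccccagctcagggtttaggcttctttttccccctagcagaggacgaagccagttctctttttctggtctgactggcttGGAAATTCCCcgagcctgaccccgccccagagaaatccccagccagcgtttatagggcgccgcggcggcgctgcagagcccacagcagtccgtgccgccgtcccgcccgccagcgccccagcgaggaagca
TNFAIP3, chr6:137867009-137867308, plus strand: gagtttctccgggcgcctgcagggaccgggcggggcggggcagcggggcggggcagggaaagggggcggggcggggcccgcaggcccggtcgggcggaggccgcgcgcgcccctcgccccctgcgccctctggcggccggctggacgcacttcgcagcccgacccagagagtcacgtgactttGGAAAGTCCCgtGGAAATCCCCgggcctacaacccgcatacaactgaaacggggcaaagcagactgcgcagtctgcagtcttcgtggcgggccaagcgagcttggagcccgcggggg
BIRC3, chr11:102317234-102317533, plus strand: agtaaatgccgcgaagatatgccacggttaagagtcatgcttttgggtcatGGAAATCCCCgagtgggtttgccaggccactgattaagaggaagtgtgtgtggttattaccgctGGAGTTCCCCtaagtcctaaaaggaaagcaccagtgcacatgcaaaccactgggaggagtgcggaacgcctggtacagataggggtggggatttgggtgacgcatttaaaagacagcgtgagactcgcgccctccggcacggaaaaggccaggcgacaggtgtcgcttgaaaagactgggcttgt
ICAM1, chr19:10270870-10271169, plus strand: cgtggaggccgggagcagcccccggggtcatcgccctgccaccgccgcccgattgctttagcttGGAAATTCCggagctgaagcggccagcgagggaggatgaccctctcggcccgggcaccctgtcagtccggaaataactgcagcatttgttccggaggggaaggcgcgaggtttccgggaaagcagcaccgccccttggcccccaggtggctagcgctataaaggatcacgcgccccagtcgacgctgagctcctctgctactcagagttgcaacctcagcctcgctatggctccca
NFKB1, chr4:102501109-102501408, plus strand: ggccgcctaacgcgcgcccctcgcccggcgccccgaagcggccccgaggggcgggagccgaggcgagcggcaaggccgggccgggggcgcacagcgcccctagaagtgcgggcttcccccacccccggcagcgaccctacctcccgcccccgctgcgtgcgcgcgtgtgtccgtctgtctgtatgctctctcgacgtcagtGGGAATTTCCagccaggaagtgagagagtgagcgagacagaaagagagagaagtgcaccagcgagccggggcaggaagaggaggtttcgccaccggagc

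Of the members, 8 had a RefSeq promoter window (12 windows in all), and 7 of these 8 held a consensus or core match in at least 1 window. Over all 27305 genes with a window, 7.34% held one. Positions are those of the first base of a match read along the gene's own strand, counted from the start. NFKBIA held GGGAATTTCC on the opposite strand, at -81. TNFAIP3 held GGGACTTTCC at -67 and GGGGATTTCC at -55, both on the opposite strand. GGGGATTTCC also occurred on the opposite strand in BIRC3. ICAM1 held the core GGAATTTCC on the opposite strand, at -186, but no consensus match. NFKB1 carried GGGAATTTCC at -49 in the window shown and had no match in its other window (chr4:102501684-102501983). Among the subunits, REL also held GGGAATTTCC, on the opposite strand, and its counting intervals included no difference in either comparison. NFKB2 held GGGACTTTCC at -21 and a further match at -176 in the window numbered 3. Its window numbered 2 held overlapping matches at -107 and -106 and a match at -78, and its window numbered 1 held none. RELA had no match in its windows. RELB and NFKBIE were not in the table of promoters. These are matches of letters, not measured binding.

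**Figure D1:**
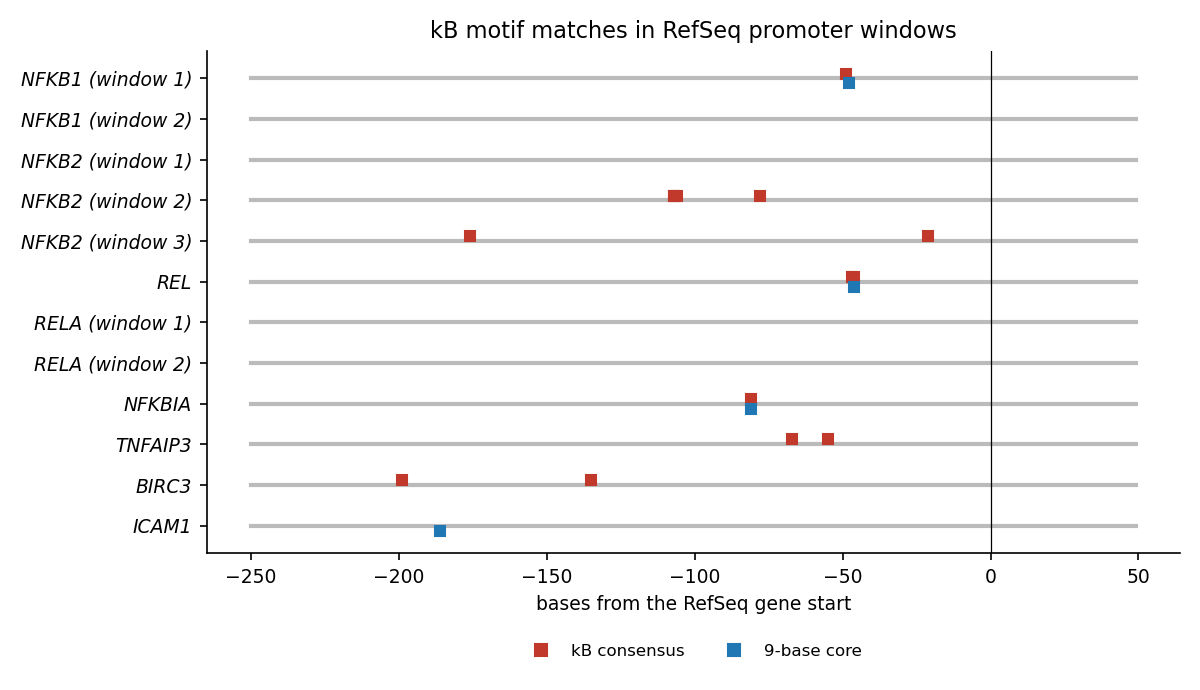
Positions of motif matches in the 12 RefSeq promoter windows of 8 members, in bases from the gene start (horizontal axis); red squares are kB consensus matches and blue squares matches to the 9-base core. RELA is the gene whose windows hold no square.

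The co-culture comparison asks how the loop differs in DLD1 beside S-CAFs. In S-CAFs-w13, the inhibitor NFKBIA, the adhesion gene ICAM1 and the subunit NFKB1 were each more than 3-fold lower than in DLD1-W13CM. TNFAIP3 and NFKBIE were lower by smaller amounts, RELA was higher, and the counting intervals of REL, NFKB2, RELB and BIRC3 included no difference. On the log2(FPKM + 1) scale 3 of 10 members were at least 2-fold lower, where 7.92% of the 14739 genes averaging 1 FPKM or more were, and 0 were at least 2-fold higher, where 9.08% of those genes were. At 1.5-fold, 4 members were lower, where 18.5% of those genes were, and 0 were higher, where 20.4% were. Of the members, 6 had a log2 ratio below 0, where 47.7% of those genes did, and their median log2(FPKM + 1) ratio was -0.26, against 0.02 over all of those genes.

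Among the subunits, NFKB1, the precursor of the DNA-binding partner in the commonest dimer, stood at 3.11 FPKM in S-CAFs-w13, against 10.6 FPKM in DLD1-W13CM. That is 3.40-fold lower (2.77 to 4.19). RELA, the main transactivating subunit, went the other way, at 18.8 FPKM in S-CAFs-w13, against 13.7 FPKM in DLD1-W13CM, 1.38-fold higher (1.22 to 1.56). Of the genes averaging 1 FPKM or more, 73.1% had a lower log2 ratio than RELA, so its rank was not extreme. The usual pair of subunits thus stood at unlike levels in S-CAFs-w13 and at closer ones in DLD1-W13CM. NFKB2, the precursor used by the alternative arm of the pathway, stood at 14.6 FPKM in S-CAFs-w13, against 13.6 FPKM in DLD1-W13CM, with an interval of its fold from 0.931 to 1.24. Its partner RELB stood at 5.41 FPKM in S-CAFs-w13, against 5.82 FPKM in DLD1-W13CM (0.703 to 1.23). REL, a subunit best known in lymphocytes, stood at 5.33 FPKM in S-CAFs-w13, against 5.06 FPKM in DLD1-W13CM (0.909 to 1.22). For these 3 subunits no difference was detectable at this depth.

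Both inhibitors were lower. NFKBIA, the classical inhibitor that is rebuilt after each activation, stood at 8.47 FPKM in S-CAFs-w13, against 32.6 FPKM in DLD1-W13CM, from 125 and 490 reads. It was 3.84-fold lower (3.15 to 4.72), and only 1.30% of the genes averaging 1 FPKM or more had a lower log2 ratio. NFKBIE, a further inhibitor of the same family, stood at 6.42 FPKM in S-CAFs-w13, against 8.93 FPKM in DLD1-W13CM, 1.39-fold lower (1.07 to 1.81). Its rank was not extreme, as 25.1% of those genes had a lower log2 ratio.

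The feedback and target genes differed among themselves. ICAM1, a surface protein that binds leukocyte integrins, stood at 13.1 FPKM in S-CAFs-w13, against 45.3 FPKM in DLD1-W13CM, 3.47-fold lower (3.05 to 3.96), from 301 and 1065 reads. TNFAIP3, a ubiquitin-editing enzyme that shuts the pathway off upstream, stood at 3.19 FPKM in S-CAFs-w13, against 6.09 FPKM in DLD1-W13CM, 1.91-fold lower (1.495 to 2.46). BIRC3, a ubiquitin ligase that protects cells from death signals, stood at 7.64 FPKM in S-CAFs-w13, against 7.32 FPKM in DLD1-W13CM, and its interval, 0.897 to 1.21, included no difference. BIRC3 was thus the member of this group with no detectable difference.

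By the counting interval, 5 of 10 members were lower and 1 was higher in S-CAFs-w13. Over 14533 genes with recovered reads, 25.9% had an interval below no difference and 28.8% one above it, and intervals narrow with the number of reads. The authors' own log2 fold changes in the authors' deposited table equal the log2 FPKM ratios shifted by -0.14. They were -2.09 for NFKBIA, -1.94 for ICAM1, -1.91 for NFKB1 and -1.08 for TNFAIP3 in the authors' deposited table.

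**Figure D2:**
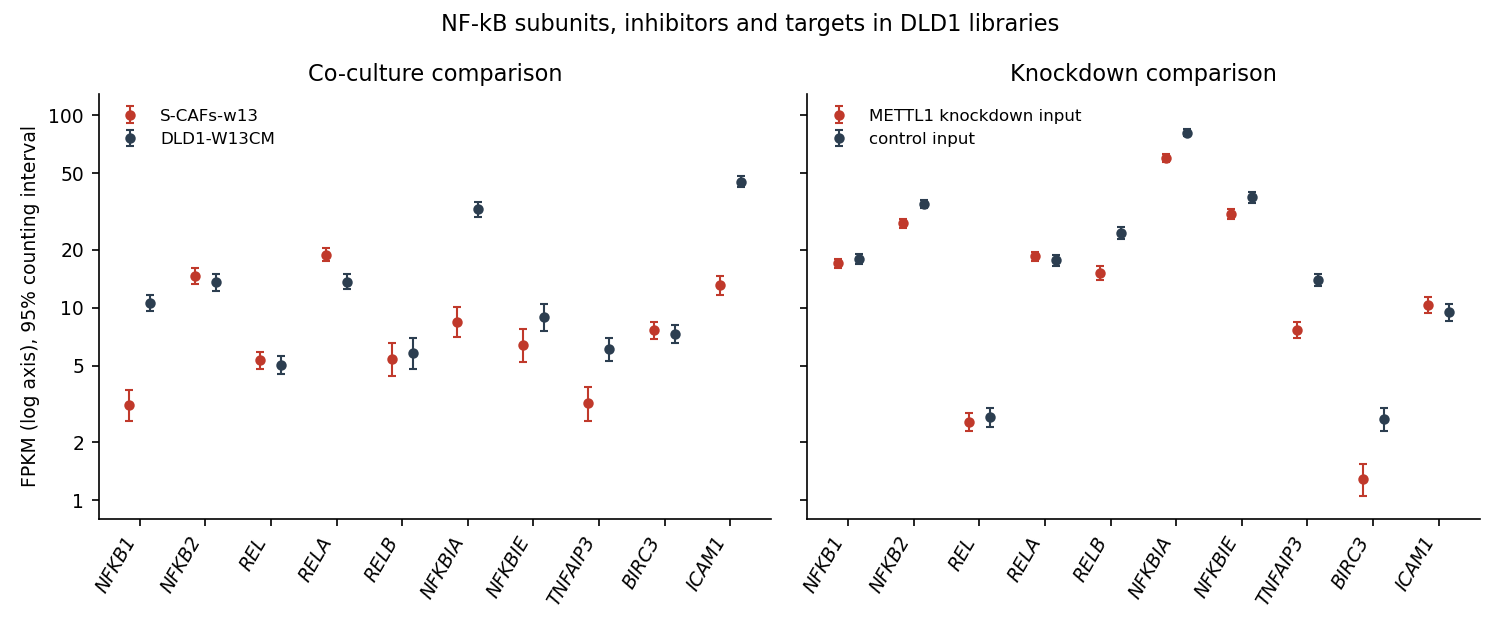
FPKM of each member on a log axis, in the co-culture libraries (left) and the input libraries (right); points are single libraries and bars their 95% counting intervals. NFKBIA stands at 8.47 FPKM in S-CAFs-w13 and 32.6 FPKM in DLD1-W13CM, while BIRC3 stands at 7.64 and 7.32 FPKM in the same libraries.

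The order of the members by FPKM also differed between the libraries. In S-CAFs-w13, RELA was highest at 18.8 FPKM, followed by NFKB2 and ICAM1, whose intervals overlapped. NFKBIA, BIRC3, NFKBIE, RELB and REL formed a run in which each interval overlapped the next, and TNFAIP3 and NFKB1 were lowest with overlapping intervals. In DLD1-W13CM, ICAM1 was highest at 45.3 FPKM, then NFKBIA at 32.6 FPKM, with intervals clear of each other and of the remaining members. RELA and NFKB2 followed at about the same level, and from NFKB1 at 10.6 FPKM down to REL at 5.06 FPKM each interval overlapped its neighbour.

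The knockdown comparison asks what reduced METTL1 does to RNA levels, and it rests on a single construct, whose unintended effects cannot be told apart from those of lower METTL1. In knockdown input the feedback genes BIRC3 and TNFAIP3 and the subunit RELB were lower by more than 1.5-fold. NFKBIA, NFKB2 and NFKBIE were lower by less, and the intervals of NFKB1, REL, RELA and ICAM1 included no difference. On the log2(FPKM + 1) scale 0 of 10 members were at least 2-fold lower, where 0.560% of 8400 genes were, and 0 were at least 2-fold higher, where 0.429% were. At 1.5-fold, 3 of 10 members were lower, where 2.68% of those genes were, and 0 were higher, where 2.50% were. Of the members, 8 had a log2 ratio below 0, where 48.8% of those genes did. The members' median log2(FPKM + 1) ratio was -0.30, against 0.01 over all of those genes.

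The subunits of the alternative arm stood lower. RELB stood at 15.2 FPKM in knockdown input, against 24.4 FPKM in control input, 1.61-fold lower (1.44 to 1.80), from 536 and 774 reads. Only 1.89% of the genes averaging 1 FPKM or more had a lower log2 ratio than RELB. NFKB2 stood at 27.4 FPKM in knockdown input, against 34.7 FPKM in control input, 1.26-fold lower (1.18 to 1.36). The subunits of the classical arm were closer together: NFKB1 stood at 17.0 FPKM in knockdown input, against 18.0 FPKM in control input, with a fold interval of 0.872 to 1.02. RELA stood at 18.5 FPKM in knockdown input, against 17.6 FPKM in control input (0.964 to 1.14). REL was low, at 2.56 FPKM in knockdown input and 2.70 FPKM in control input (0.810 to 1.11).

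Both inhibitors were lower here too. NFKBIA stood at 59.99 FPKM in knockdown input, against 81.3 FPKM in control input, 1.35-fold lower (1.27 to 1.45), from 1655 and 2016 reads. NFKBIE stood at 30.7 FPKM in knockdown input, against 37.5 FPKM in control input, 1.22-fold lower (1.12 to 1.34). Of the genes averaging 1 FPKM or more, 5.64% had a lower log2 ratio than NFKBIA and 12.5% a lower one than NFKBIE.

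Of the feedback and target genes, TNFAIP3 stood at 7.70 FPKM in knockdown input, against 13.9 FPKM in control input, 1.81-fold lower (1.61 to 2.04). Only 1.14% of the genes averaging 1 FPKM or more had a lower log2 ratio than TNFAIP3. BIRC3 stood at 1.28 FPKM in knockdown input, against 2.65 FPKM in control input, 2.07-fold lower (1.63 to 2.62), from 112 and 208 reads; adding 1 FPKM to a gene this low brings its log2 ratio to -0.68, short of 2-fold. ICAM1 stood at 10.4 FPKM in knockdown input, against 9.50 FPKM in control input, and its fold interval was 0.947 to 1.25. ICAM1 was thus the member of this group with no detectable difference in the knockdown.

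By the counting interval, 6 of 10 members were lower and 0 were higher in knockdown input, where 23.0% of 8397 genes had an interval below no difference and 24.8% one above it. The knockdown table lists only genes with an m7G peak, so its background is not that of all genes. In the authors' deposited table the log2 fold changes were -1.06 for BIRC3, -0.87 for TNFAIP3 and -0.70 for RELB, with a shift of -0.01 from the log2 FPKM ratios.

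In control input, NFKBIA was highest at 81.3 FPKM, then NFKBIE and NFKB2 with overlapping intervals, RELB, NFKB1 and RELA with overlapping intervals, TNFAIP3, ICAM1, and REL and BIRC3 together at the bottom. In knockdown input, the order was NFKBIA, NFKBIE and NFKB2 (overlapping), RELA, NFKB1 and RELB (each overlapping the next), ICAM1, TNFAIP3, REL and BIRC3. RELB stood below RELA there, with intervals apart, and above RELA in control input, also with intervals apart. The tables were normalised separately, so FPKM are not compared between the co-culture and the input libraries.

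The comparisons share no library and can be set side by side. Counting intervals were below no difference in both for 3 members (NFKBIA, NFKBIE and TNFAIP3). They were so in the co-culture comparison alone for 2 (NFKB1 and ICAM1) and in the knockdown comparison alone for 3 (NFKB2, RELB and BIRC3). Over all genes with recovered reads, 25.9% were below no difference in the co-culture and 23.0% in the knockdown. The same split over all genes was not computed, so these counts are not read as a trait of the members. ICAM1 was 3.47-fold lower (3.05 to 3.96) in S-CAFs-w13, while its fold in knockdown input was 1.09 (0.947 to 1.25). BIRC3 had a fold of 1.04 (0.897 to 1.21) in S-CAFs-w13 and was 2.07-fold lower (1.63 to 2.62) in knockdown input. The intervals of each of these genes do not overlap between the comparisons. A difference between the comparisons beyond counting error was not tested.

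**Figure D3:**
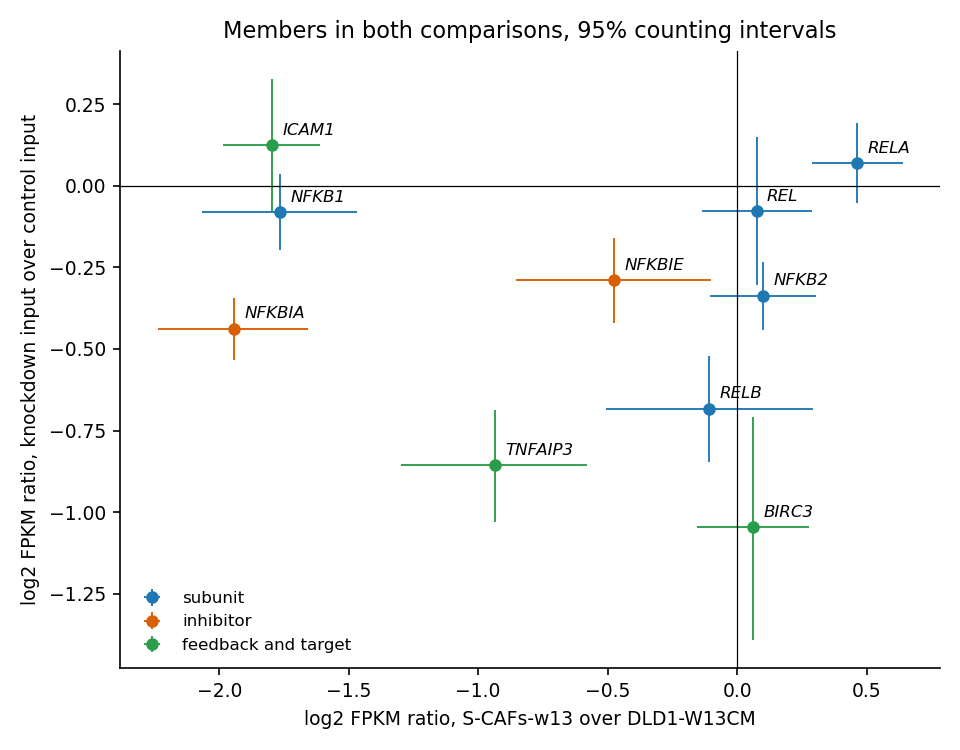
Log2 FPKM ratio of each member in the co-culture comparison (horizontal axis) and the knockdown comparison (vertical axis), coloured by role; bars are 95% counting intervals of single libraries. NFKBIA, NFKBIE and TNFAIP3 lie below 0 on both axes with bars clear of 0, ICAM1 lies left near 0 on the vertical axis, and BIRC3 lies low near 0 on the horizontal axis.

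The lists for the rest of the pathway were chosen with earlier results of these data known, so their counts describe and do not test. They hold 108 genes that are not members. Of these, 88 averaged 1 FPKM or more in the co-culture table, of which 16 were lower and 5 higher by 2-fold or more in S-CAFs-w13, beside the 7.92% and 9.08% of all genes. By the counting interval 35 were lower and 34 higher, beside 25.9% and 28.8% of all genes, so that the lean towards lower values was in the genes past 2-fold. The 11 measured receptors held 0 genes past 2-fold and had a median log2 ratio of 0.32. TNFRSF1A, the main receptor for tumour necrosis factor, stood at 30.1 FPKM in S-CAFs-w13, against 16.9 FPKM in DLD1-W13CM, 1.78-fold higher (1.58 to 2.004). TNFRSF1B, its second receptor, was 1.91-fold higher (1.51 to 2.41), and TLR3, a sensor of double-stranded RNA, was 2.51-fold lower in FPKM (1.82 to 3.4997).

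Ligands were scarce. TNFSF15, a cytokine of the tumour necrosis factor family, stood at 6.36 FPKM in S-CAFs-w13, against 15.6 FPKM in DLD1-W13CM, 2.45-fold lower (2.14 to 2.80). IL18, an inflammatory cytokine made by epithelium, was 1.81-fold higher (1.57 to 2.08). TNF itself, chosen after its values were seen, stood at 0.192 FPKM in S-CAFs-w13 and 1.32 FPKM in DLD1-W13CM, from 1 read and 7 reads, and its fold interval of 0.00323 to 1.13 included no difference.

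Of 20 adaptors and ubiquitin ligases, 2 stood past 2-fold upward and 1 past 2-fold downward. Of all genes averaging 1 FPKM or more, 9.08% and 7.92% did, so these counts lie near that share. RBCK1, part of the complex that builds linear ubiquitin chains, stood at 51.7 FPKM in S-CAFs-w13, against 18.9 FPKM in DLD1-W13CM, 2.74-fold higher (2.47 to 3.05). BCL10, an adaptor upstream of the kinase complex, was 2.15-fold higher (1.86 to 2.49). MYD88, the adaptor of interleukin and Toll-like receptors, was 2.36-fold lower (1.86 to 3.02).

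Of 10 kinases, MAP3K14, the kinase that starts the alternative arm, was 3.05-fold higher (2.39 to 3.91), at 7.40 FPKM in S-CAFs-w13, against 2.43 FPKM in DLD1-W13CM. IKBKB, the catalytic kinase of the classical arm, was 2.24-fold higher in FPKM (1.91 to 2.63). IKBKE, an inducible relative, was 6.34-fold lower (3.66 to 11.8), at 0.637 FPKM in S-CAFs-w13, against 4.04 FPKM in DLD1-W13CM. The 8 genes of the machinery that degrades the inhibitors held 0 past 2-fold. Of all genes averaging 1 FPKM or more, 7.92% were lower and 9.08% higher by that much. Among them the scaffold CUL1 was 1.99-fold lower in FPKM (1.70 to 2.34), SKP1 was 1.63-fold lower (1.45 to 1.83) and FBXW11 was 1.41-fold higher (1.24 to 1.597).

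Of 13 other inhibitors and atypical IkB genes, 2 were at least 2-fold lower. Over all genes averaging 1 FPKM or more, 7.92% were at least 2-fold lower and 9.08% at least 2-fold higher. NFKBIZ, a nuclear IkB protein that works as a coactivator, was 6.30-fold lower (5.25 to 7.60), and ZC3H12A, a ribonuclease that degrades inflammatory mRNAs, was 3.61-fold lower (2.88 to 4.55). ITCH, a ubiquitin ligase that works with TNFAIP3, was 1.68-fold higher (1.53 to 1.85). The list as a whole did not lean lower, with a median log2 ratio of 0.41. Of the 13 intervals, 7 lay above no difference and 3 below it, beside 28.8% and 25.9% of all genes with recovered reads. The list of other targets was also chosen with earlier results known. Of 24 other targets, 11 were at least 2-fold lower and 2 higher, with a median log2 ratio of -0.91. The lowest were the chemokines CXCL1, CXCL2 and CCL20, with log2 ratios of -4.21, -3.92 and -3.39, and CXCL1 and CXCL2 are closely related genes, so the split of reads between them is uncertain. The 2 higher ones, named after their values were seen, were PLAU (4.68-fold, 3.36 to 6.64) and CSF2 (10.7-fold, 2.62 to 94.2, from 21 reads and 2 reads).

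Of the 108 genes, 68 averaged 1 FPKM or more in the knockdown table, of which 8 were at least 2-fold lower and 0 higher in knockdown input, beside the 0.560% and 0.429% of all genes. By the counting interval 28 were lower and 19 higher. Of the 8, 7 were on the list of 17 other targets and 1, ZC3H12A, on that of 12 other inhibitors. ZC3H12A stood at 14.5 FPKM in knockdown input, against 38.4 FPKM in control input, 2.65-fold lower (2.39 to 2.94). NFKBIZ was 1.57-fold lower (1.43 to 1.71) and NFKBIB, another classical IkB inhibitor, was 1.47-fold lower (1.24 to 1.73). Of the 12, 5 had an interval below no difference and 4 one above it, beside the 23.0% and 24.8% of all genes, and their median log2 ratio was -0.05. The targets with the lowest log2 ratios were CXCL1 (-2.27), LCN2 (-2.03) and SAA1 (-1.84).

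Upstream genes were within 2-fold in the knockdown on the log2(FPKM + 1) scale, as were nearly all genes. Of 8400 genes, 0.560% were at least 2-fold lower and 0.429% at least 2-fold higher. The lists of 8 receptors, 16 adaptors, 7 kinases and 6 degradation genes held 0 past 2-fold, with median log2 ratios of -0.08, -0.10, 0.17 and 0.05. TNFRSF1B was 2.07-fold higher in FPKM (1.56 to 2.75) and TNFRSF1A was 1.39-fold lower (1.23 to 1.58). IKBKG, the regulatory subunit of the kinase complex, was 1.62-fold higher (1.25 to 2.103), and IKBKE was 1.47-fold lower (1.27 to 1.70). TAB1, a partner of the upstream kinase TAK1, was 1.33-fold higher (1.12 to 1.58). BIRC2, a close relative of BIRC3, was 1.44-fold lower (1.19 to 1.75). TRADD, an adaptor of TNFRSF1A, was 1.49-fold higher (1.13 to 1.96), and the scaffold CARD10 was 1.37-fold lower (1.18 to 1.597). The receptor IL17RC was 1.39-fold higher (1.14 to 1.70). Of the degradation genes FBXW11 was 1.22-fold lower (1.06 to 1.41), SKP1 was 1.12-fold higher (1.03 to 1.21), and the interval of BTRC, 0.961 to 1.31, included no difference. The ligands TNFSF15 and LTB, a ligand of the alternative arm, were 1.84-fold (1.57 to 2.17) and 1.68-fold (1.12 to 2.56) lower.

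**Figure D4:**
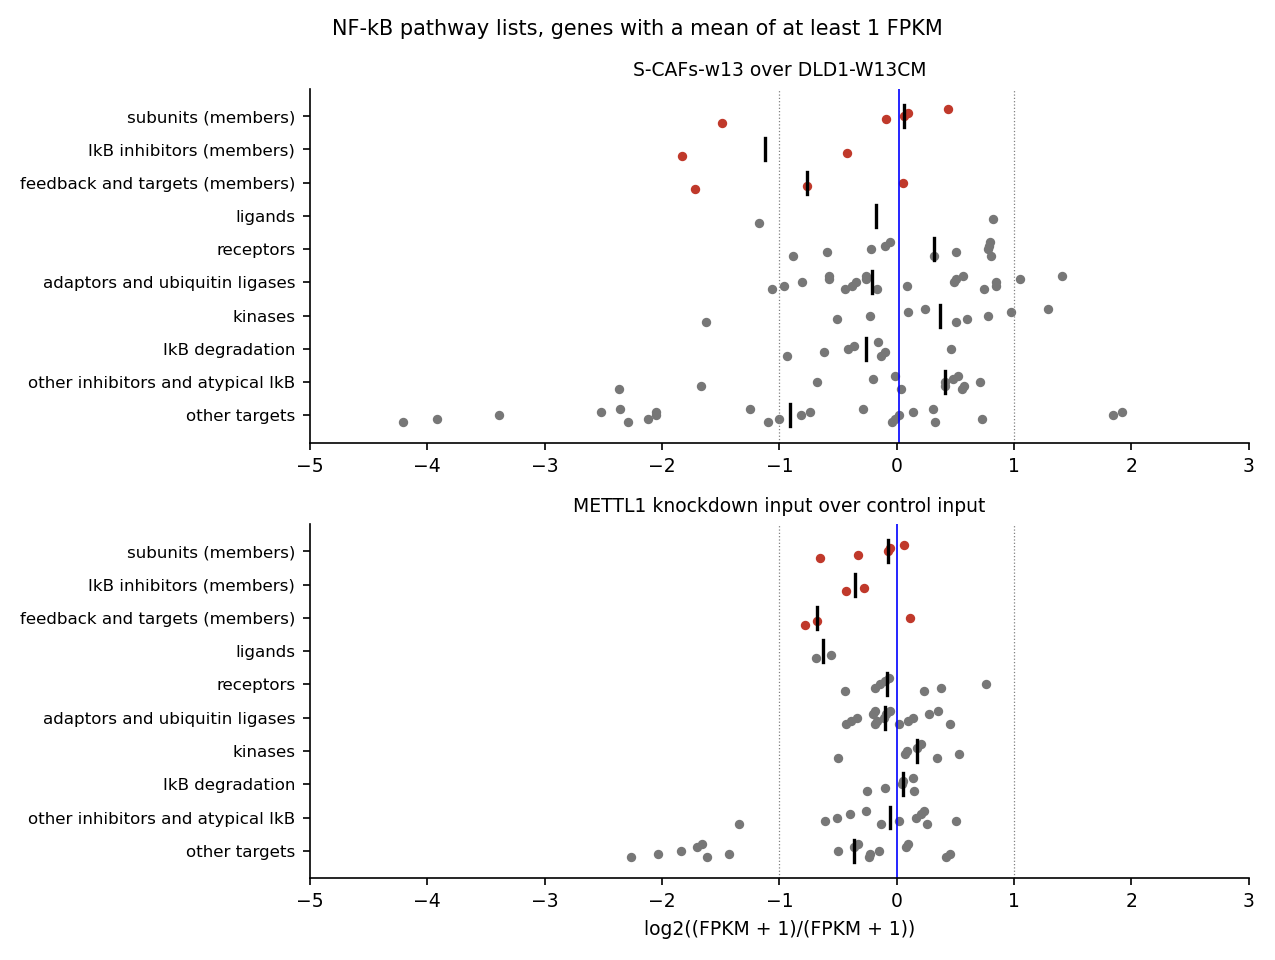
Log2((FPKM + 1)/(FPKM + 1)) of single genes (points) by pathway list in the co-culture comparison (top) and the knockdown comparison (bottom); members are red, black bars are list medians, the blue line is the median of all genes and dotted lines mark 2-fold. The other targets reach furthest to the left in both panels, and 0 receptors lie past a dotted line in either panel.

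The pull-down libraries address where the m7G mark sits and whether it differs after METTL1 knockdown. Each member had 1 listed peak, as every gene of that table does, and 6 of the 10 lay by annotation in a 5′ UTR. That of RELA lay in the 3′ UTR, and the 3 peaks of NFKB2, NFKBIA and NFKBIE lay in coding sequence. Over all 9450 peaks 49.5% were in the 5′ UTR, 29.5% in the coding sequence and 2.06% in the 3′ UTR. Peak enrichments here are the authors' own, and over which libraries they were taken is not stated. IP levels for each line were not analysed here.

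In the authors' deposited table, RELB had the strongest pull-down of the members, a fold enrichment of IP over input of 125, above 99.8% of all peaks. Its peak lay in the 5′ UTR at chr19:45001430-45008481, as 3 exon blocks of 328 bases in sum. TNFAIP3 followed with 53.6 (chr6:137867188-137867645) and REL with 46.7 (chr2:60881521-60891772). In the authors' deposited table ICAM1 had a fold enrichment of 24.7, NFKB1 of 23.8, NFKBIE of 14.9, BIRC3 of 12.7 and NFKBIA of 10.5, beside a median of 12.4 over all peaks. The weakest peaks of the members, also by the authors' deposited table, were that of NFKB2 at 1.71, above 2.14% of all peaks, and that of RELA at 2.12, above 5.21%.

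The 5′ edge of the peak lay within 120 bases of a RefSeq gene start for 8 of 10 members, and for 60.6% of the 8513 peaks with a RefSeq start, a distance set after the positions were seen. The NFKBIA peak (chr14:35404057-35404749), although annotated to the coding sequence, began at the first base of the gene. That of NFKBIE began at -118, upstream of the gene's start. The NFKB2 peak (chr10:102399306-102399485) began 3601 bases and the RELA peak (chr11:65654880-65655118) 7798 bases downstream of the nearest start along the genome. The weakest peaks of the members, those of NFKB2 and RELA, were thus inside the transcript. The 8 near a start ranged in enrichment from 10.5 (NFKBIA) to 125 (RELB), beside a median of 12.4 over all peaks. Whether METTL1 wrote the m7G at these peaks was not tested.

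The direction of the authors' m7G change is given by no label, and it is read here as knockdown over control. In the authors' deposited table, NFKBIA was the 1 of 10 members below an FDR of 0.05, with a log2 m7G change of 0.66 and an FDR of 0.0129, where 5.25% of all peaks passed and 3.07% passed with a change above 0. Read so, the NFKBIA value was higher in the knockdown, and read the other way it was lower. In the authors' deposited table NFKB1 had a log2 change of 0.85 (FDR 0.117) and REL one of -0.86 (FDR 0.233). At an unadjusted p of 0.05 these and NFKBIA passed in the authors' deposited table, 3 of 10 members, where 16.1% of all peaks did. The others had log2 changes between -0.58 (RELB) and 0.69 (TNFAIP3) with an FDR from 0.419 to 0.689 in the authors' deposited table. Of the 10, 6 were above 0, where 50.1% of all peaks were. These p-values rest on 1 input and 1 IP library of each line and cannot cover variation between cultures.

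**Figure D5:**
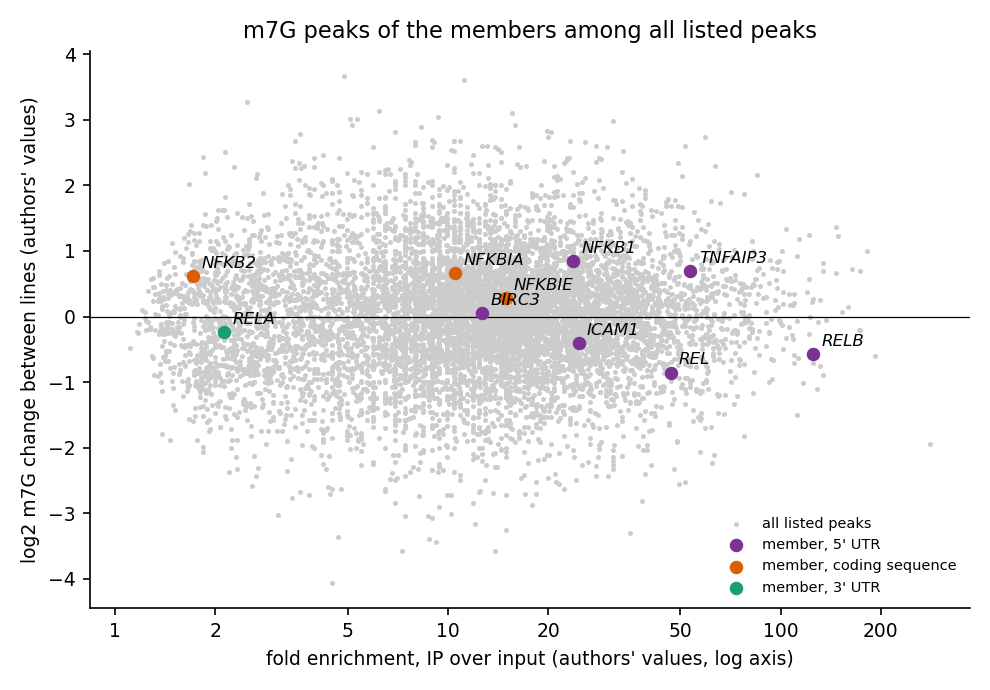
Authors' fold enrichment of IP over input (horizontal, log axis) and log2 m7G change between the lines (vertical) for all 9450 peaks (grey) and for the 10 members, coloured by annotated location. Of the members, RELB lies furthest right at 125, and NFKB2 and RELA furthest left at 1.71 and 2.12.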

How the data were processed

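Per the submitters' processing notes, the tools were cutadapt 2.5, HISAT2 2.1.0, featureCounts 1.6.3, DESeq2, SAMtools 1.10 and HOMER 4.10.4, with no step assigned to any, and GRCh38, hg38 and GRCm38 are the builds named. The sources used here do not name the peak caller. The authors deposited FPKM for the 4 expression libraries; the FPKM unit of the input columns was inferred from their values. Per the file headers they also deposited log2 fold changes, p-values and FDR, a fold enrichment ratio for each peak, and log10 p and FDR of the m7G change. The deposited peak p-values and their log10 were not used for any result. Peak coordinates are on GRCh38, where 98.7% of peaks with a RefSeq symbol overlapped that gene.

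Divided by a constant, the FPKM ratio of the paired libraries was a ratio of whole numbers, within a relative error of 1e-13, in 20806 of 20806 co-culture genes and 9348 of 9348 knockdown genes not at 0. Library sizes in the co-culture were set from RefSeq lengths of mitochondrial genes, where 6 of 15 shared 1 size, and in the knockdown from the gene lengths so recovered, where 4860 of 9182 did, and the gene length whole in both tables gave the smallest reads possible, so intervals are at their widest. Intervals are exact (Clopper-Pearson for folds, Poisson for levels, 95%, scipy 1.17.1) and cover only counting error: PCR copies of a molecule are counted as separate reads. The pseudocount was 1 FPKM, the filter a mean of at least 1 FPKM. The recovery was tested on simulated data. The kit does not mark strand, so reads of the lncRNAs that RefSeq places over NFKB1, RELA, TNFAIP3 and ICAM1 cannot be told apart from theirs.

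Members, lists and tests were chosen with earlier results of these data known. The named genes were all members, up to 3 genes of each list with the largest absolute log2 ratio, every gene past 2-fold where a list had at most 5, and the 5 genes nearest the members' median pair of ratios. Alternatives were the pseudocount, the filter, the scaling, the fold and the interval as the call.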

Additional observations from a re-analysis of the deposited data

How the results depend on the processing

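No paired analysis was possible because each group held 1 library, and no library could be left out. With a pseudocount always added, the count of members past 2-fold stayed at 3 lower in the co-culture comparison and at 0 in the knockdown comparison. The settings were a pseudocount of 0.1 FPKM, no filter, a mean of at least 5 FPKM and the authors' scaling. Setting the median of all genes at 0 and, for the co-culture, leaving out genes of the mitochondrial genome gave the same counts. The authors' log2 fold changes equal shifted FPKM ratios without a pseudocount. In the authors' deposited table they also put TNFAIP3 in the co-culture (-1.08) and BIRC3 in the knockdown (-1.06) past 2-fold. At 1.5-fold, 4 members were called in the co-culture comparison and 3 in the knockdown comparison. In the co-culture 44 of 88 list genes were called, 26 lower and 18 higher, beside 18.5% and 20.4% of all genes. Where the counting interval excluded no difference, 6 members were called in each comparison, and 69 list genes in the co-culture (35 lower, 34 higher, against 16 and 5 past 2-fold) and 47 in the knockdown (28 lower, 19 higher, against 8 and 0), beside 25.9% and 28.8% of all genes in the co-culture and 23.0% and 24.8% in the knockdown. With the authors' scaling as well, a setting chosen after seeing the data, these were 6 members in each, 67 and 46. In the m7G comparison 3 members passed the authors' unadjusted p. Read as control over knockdown, the m7G change of NFKBIA was -0.66. The members' median log2 ratio in the co-culture was -0.40 on the authors' scaling and -0.09 at a mean of at least 5 FPKM, where TNFAIP3 is left out. That filter leaves out REL and BIRC3 in the knockdown comparison. Depth limits the low genes: BIRC3 in knockdown input rested on 112 reads, and TNF in S-CAFs-w13 on 1 read.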

Other observations

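Outside the pathway lists, the genes whose pair of log2(FPKM + 1) ratios lay nearest to the members' median pair (-0.26 in the co-culture comparison and -0.30 in the knockdown comparison) were TPRA1, NENF, PAPOLA, ALMS1 and HMOX1, out of 4548 genes averaging 5 FPKM or more in both tables. TPRA1 lay at a distance of 0.0081, with ratios of -0.25 and -0.31, and stood at 7.47 FPKM in S-CAFs-w13, against 9.08 FPKM in DLD1-W13CM, and at 16.8 FPKM in knockdown input, against 21.0 FPKM in control input. HMOX1, the inducible haem oxygenase, lay at a distance of 0.0429. The likeness rests on 2 ratios from 4 libraries, and the members themselves were spread widely around that pair.

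The kB consensus or core was also looked up in the promoters of the other lists. It was found in 14 of 24 other targets, in 6 of 13 other inhibitors, in 2 of 7 ligands, in 1 of 17 adaptors, in 1 of 9 kinases, in 1 of 7 degradation genes and in 0 of 11 receptors, beside 7.34% of all genes. Among the 72 list genes with an m7G peak, the authors' deposited table puts LCN2 and CXCL5 below an FDR of 0.05, with log2 changes of 0.38 and -0.21; over all peaks 5.25% passed.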
